A study of Mus musculus with 4 samples.

Results

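The T cell receptor recognises peptide through an alpha and a beta chain, and it signals through 4 CD3 chains that carry no antigen-binding part. In total RNA-seq of mouse T-helper 2 cells, 9 gene rows of the receptor were followed, of 50600 in the gene tables. They were listed by name, as the 3 constant regions of the alpha and beta chains (Trac, Trbc1 and Trbc2), the 4 CD3 chains (Cd3e, Cd3d, Cd3g and Cd247), and 2 features annotated on the strand opposite a CD3 gene (Gm48719 opposite Cd3e, and Pou2f1 opposite Cd247). The study held 4 libraries of 1 group, biological replicates 1 to 4 of primary cells from C57BL/6NJ mice. It held no control and no other cell type, and the labels link a protocol for differentiating CD4 T cells. All 4 libraries carry the same donor record, and the labels give age as unknown and do not say whether the replicates are separate mice, so any p-value here reflects variation among these 4 libraries alone, and that variation may be technical.

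An alpha-beta T cell builds its receptor from a rearranged variable part, made of V and J segments (with a D segment in the beta chain), spliced to a constant region encoded by Trac, Trbc1 or Trbc2. The epsilon chain (Cd3e) pairs with the delta (Cd3d) or the gamma chain (Cd3g), and the zeta chain (Cd247) joins as a pair of its own. The CD3 chains carry immunoreceptor tyrosine-based activation motifs (ITAMs), in which tyrosines phosphorylated by the kinase Lck are bound by the kinase Zap70. T-helper 2 cells are CD4 T cells known for interleukin-4, interleukin-5 and interleukin-13, and they use this receptor for activation.

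The strand of the counts limits what each value below means. In every library the mitochondrial light-strand gene mt-Nd6 had more counts than the 12 heavy-strand coding genes together, by between 6.13-fold and 8.79-fold. Genes with exon bases that also belong to an opposite-strand gene were 16.2% of all genes and held between 92.2% and 95.9% of the counts. Counts thus appear to lie mainly on the strand opposite the annotated transcripts, so that a count in one row may come from RNA of the gene on the other strand. Each value below, zeros included, is a count from the strand chosen in the counting, and no value is taken as how much a gene was expressed. Library totals were 1804217, 1846441, 2711948 and 2169955 counts in replicates 1 to 4. CT010467.1, a ribosomal RNA gene, held 28.6% of the counts of replicate 3 and 14.4% of those of replicate 4, against 1.02% and 1.14% in replicates 1 and 2. Replicate 4 also stood apart over genes with no bases on the other strand, whose median difference from the mean of the other 3 libraries was -1.25 log2 units (2721 genes). Ratios with an interval below cover counting error only.

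The ITAMs are shown first, since they are what the CD3 chains share and the receptor chains lack. The search read the annotated coding sequence for a tyrosine codon, 2 codons, a leucine or isoleucine codon, and the same pattern again after 6 to 12 further codons. It found 1 motif each in Cd3e, Cd3d and Cd3g and 3 in Cd247. The capitals mark the codons of both tyrosines, in spliced coding sequence of GENCODE M21 on GRCm38.
Cd3e: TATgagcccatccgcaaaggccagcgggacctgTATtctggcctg
Cd3d: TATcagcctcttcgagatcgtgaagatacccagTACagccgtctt
Cd3g: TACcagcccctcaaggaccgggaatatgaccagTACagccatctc
Cd247 (ITAM 1): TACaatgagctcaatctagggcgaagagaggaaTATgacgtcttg
Cd247 (ITAM 2): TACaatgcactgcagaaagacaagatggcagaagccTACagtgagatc
Cd247 (ITAM 3): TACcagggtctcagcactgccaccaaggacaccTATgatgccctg
The tyrosine codons have 10 codons between them in 5 of the 6 motifs and 11 in the second motif of Cd247. In every one of the 6, an intron falls inside the motif, so that its ends lie in different exons.

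Gm48719 lies across the end of the Cd3e ITAM. Its first exon of 135 bases falls wholly within the last exon of Cd3e, on the other strand, and 30 of those bases are coding in Cd3e. The 54 coding bases of that Cd3e exon (chr9:44999534-44999587, minus strand, GRCm38) are shown with the 30 shared bases in capitals, beside the same 30 bases read on the plus strand of Gm48719.
Cd3e, last coding bases: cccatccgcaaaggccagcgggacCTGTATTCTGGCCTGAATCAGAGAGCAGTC
Gm48719, same bases: GACTGCTCTCTGATTCAGGCCAGAATACAG
The capitals of Cd3e are the reverse complement of the Gm48719 line. They include 15 bases of the ITAM, with its second tyrosine codon. The other 105 shared bases lie outside the coding part of Cd3e, and the 226 bases of the second Gm48719 exon fall in no Cd3e exon.

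The beta constant regions are near-identical copies, so a fragment can match both. Their coding parts differ at 23 of 518 bases (95.6% identity), and only 1 of those differences lies in the 375 bases of the first exon. Of the 50-base windows of the Trbc1 transcript, 41.1% also occur in Trbc2. The 90 bases with the most differences hold 14 of them, shown in capitals, from chr6:41539235-41539324 in Trbc1 and chr6:41547778-41547867 in Trbc2, both plus strand.
Trbc1: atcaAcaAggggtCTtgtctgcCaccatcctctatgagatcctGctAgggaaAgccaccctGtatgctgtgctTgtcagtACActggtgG
Trbc2: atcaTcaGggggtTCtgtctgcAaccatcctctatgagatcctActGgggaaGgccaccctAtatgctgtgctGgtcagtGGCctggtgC
The split of counts between Trbc1 and Trbc2 is uncertain for this reason, and their sum is given beside each.

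Cd3g, Cd3d and Cd3e neighbour each other on chromosome 9 within 40056 bases and share no exon base in any of the 3 pairings. In the coordinates of the tables (mm10), Cd3g (ENSMUSG00000002033.14) runs over chr9:44969572-44980431 on the minus strand, with 3269 exon bases in 6 merged exons. Cd3d (ENSMUSG00000032094.8) runs over chr9:44981786-44987339 on the plus strand, with 1815 exon bases in 6. Cd3e (ENSMUSG00000032093.7) runs over chr9:44998740-45009627 on the minus strand, with 4080 exon bases in 8. Cd3g and Cd3d thus point away from each other across a gap of 1354 bases, and Cd3d and Cd3e point towards each other across 11400. Gm48719 (ENSMUSG00000111203.1; chr9:44999429-45002985, plus strand, 361 exon bases in 2 exons) lies wholly within the span of Cd3e. The 135 bases it shares with Cd3e are 37.4% of its own exon bases and 3.31% of those of Cd3e. Cd3d and Cd3g share no exon base with any annotated gene.

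Cd247 lies alone on chromosome 1 (ENSMUSG00000005763.15; chr1:165788681-165877277, plus strand, 5329 exon bases in 12 merged exons). Pou2f1, which encodes the octamer-binding factor Oct-1, ends inside it from the other strand (ENSMUSG00000026565.18; chr1:165865154-166002678, minus strand, 16597 exon bases in 20). The spans overlap over 12124 bases and the exons over 3007, which is 56.4% of the exon bases of Cd247 and 18.1% of those of Pou2f1. Cd247 shares a further 206 bases with Gm16565 on its own strand, which had 26, 28, 33 and 17 counts in replicates 1 to 4. The 3 constant regions share no exon base with any gene. Trac (ENSMUSG00000076928.5) is at chr14:54220521-54224206, Trbc1 (ENSMUSG00000076490.6) at chr6:41538218-41539881 and Trbc2 (ENSMUSG00000076498.2) at chr6:41546730-41548352, all on the plus strand, with 935, 749 and 692 exon bases.

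**Figure D1:**
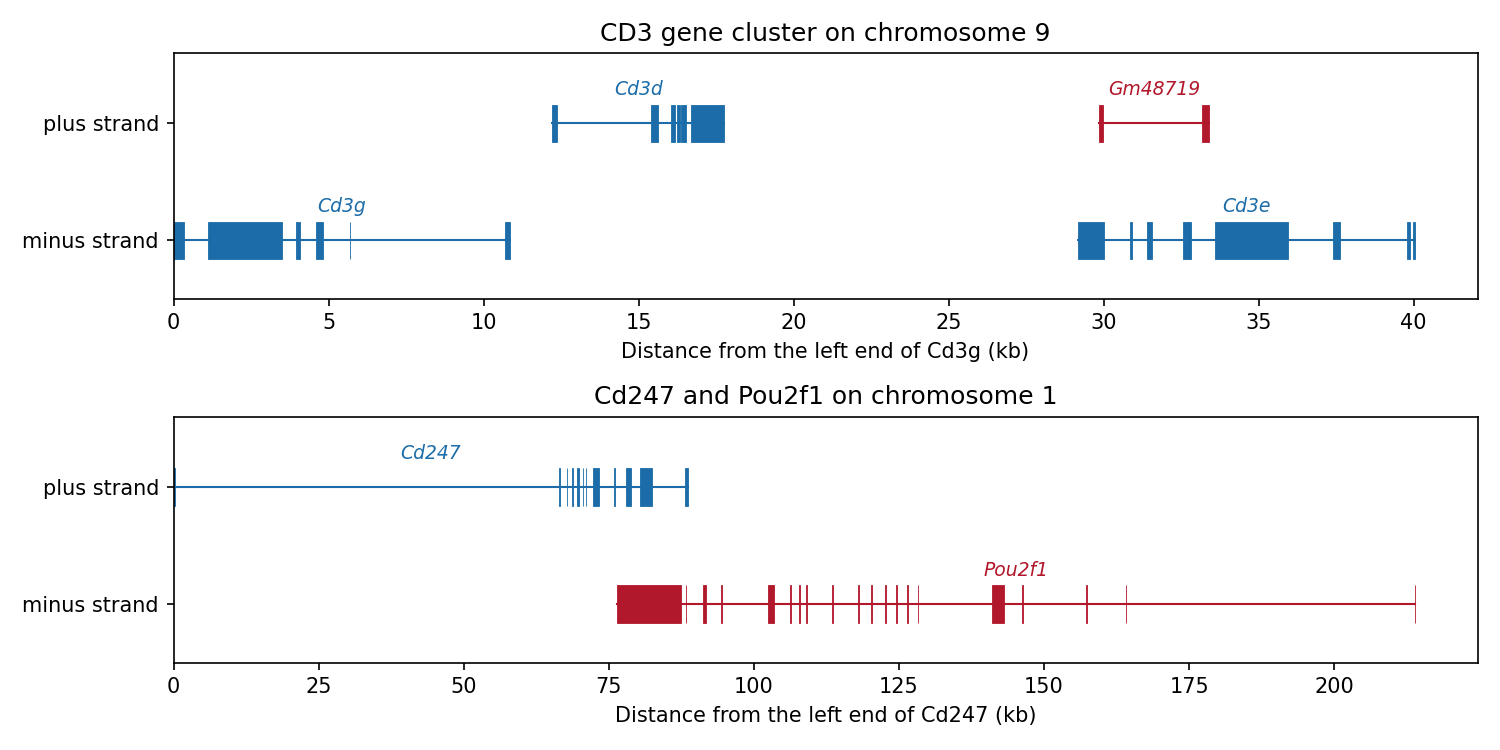
Exons (boxes) and spans (lines) of the CD3 genes (blue) and of the features opposite them (red), by strand, as distance in kb from the left end of Cd3g (top) and of Cd247 (bottom). Gm48719 lies within Cd3e with 135 shared exon bases, and the exons of Pou2f1 and Cd247 share 3007, while Cd3g and Cd3d overlap nothing.

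On the selected strand, Gm48719, Cd247 and Pou2f1 held 98.0% of all counts of the 9 rows (16906 of 17254). The 5 rows with no shared bases (Trac, Trbc1, Trbc2, Cd3d and Cd3g) held 297 counts over the 4 libraries, and Cd3e held 51. Per kilobase of exon, the sum of the 4 libraries was 30158 counts for Gm48719 and 889 for Cd247. It was 83.4 for Trac, 77.4 for Pou2f1, 72.3 for Trbc2 and 68.1 for Trbc1. The chromosome 9 CD3 chains were lowest, at 36.9 for Cd3d, 15.6 for Cd3g and 12.5 for Cd3e.

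**Figure D2:**
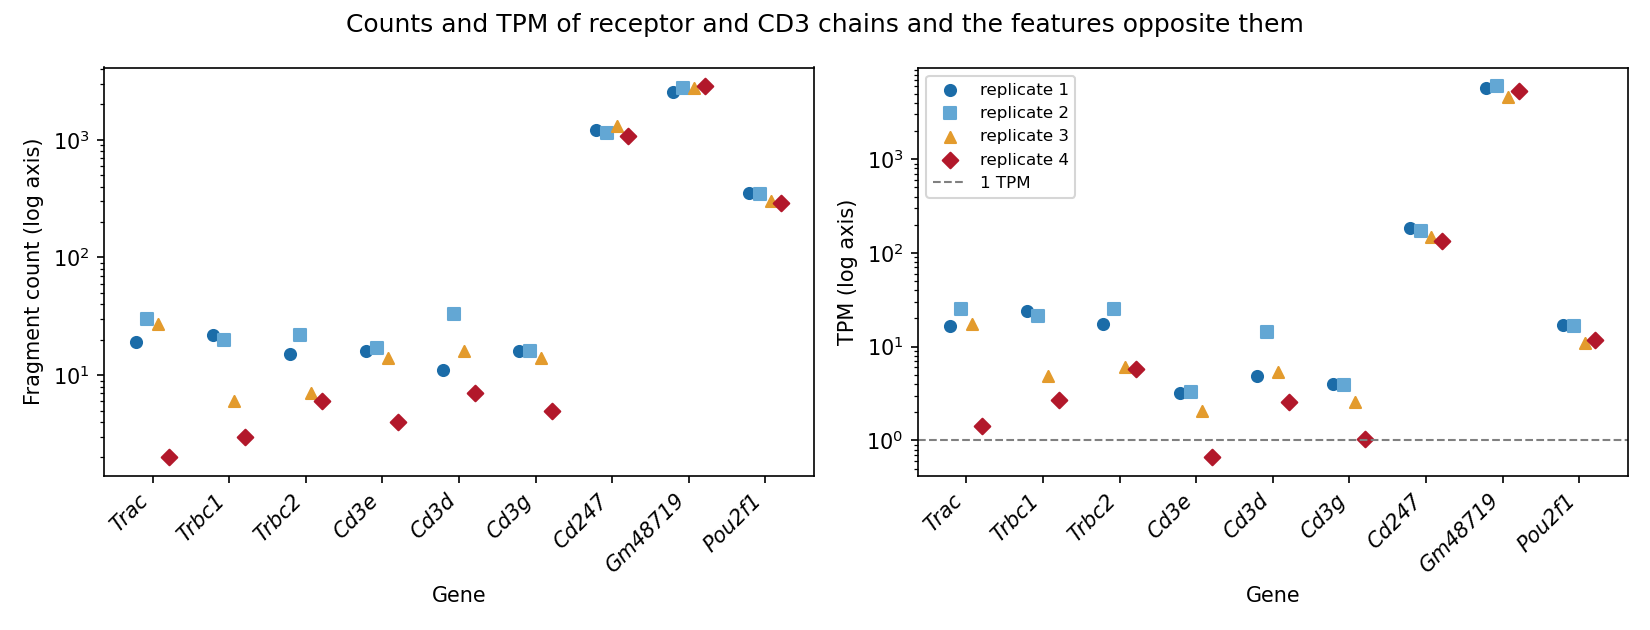
Fragment counts (left) and TPM (counts per exon length, scaled to the same total in each library, right), both on log axes, for each gene (columns) in each of the 4 libraries (1 marker each), with 1 TPM as a dashed line. Gm48719 sits between 4565 and 6031 TPM and Cd247 between 135 and 183 TPM, and in the 6 columns from Trac to Cd3g the marker of replicate 4 is the lowest.

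Levels were set against 1 TPM (counts per exon length, scaled to the same total in each library) with limma, on log2(TPM + 0.1). Of the 9 rows, 8 were called above 1 TPM and 0 below at a Benjamini-Hochberg adjusted p of 0.05 over 17203 genes with a count. Over all those genes, 32.1% were called above and 26.6% below, and their median mean level was 1.14 TPM. All 9 rows averaged 10 or more counts, and among the 6081 genes that did so 80.6% were called above, so 8 of 9 is near the share for genes of such counts. Cd3e was the 1 row not called. With replicate 4 left out all 9 rows were called above, and with replicate 1, 2 or 3 left out 6, 6 and 7 were. Over all genes, 6452 of 16573 were called above without replicate 4, against 5523 of 17203 in all libraries, so the count rose there too. Without replicate 1, 2 or 3 it was 5090 of 16515, 5161 of 16460 and 5097 of 16396.

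Trac, the only constant region of the alpha chain, had 19, 30, 27 and 2 counts in replicates 1 to 4, or 16.5, 25.4, 17.4 and 1.44 TPM. Replicate 4 stood well below the other libraries, which lay within a factor of 2 of each other. The mean was 15.2 ± 10.01 TPM (SD, n = 4), 3.23 log2 units over 1 TPM (SE 0.68, limma adjusted p = 0.00714). The call was lost without replicate 1 (adjusted p = 0.0701) and without replicate 2 (adjusted p = 0.0603).

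Trbc1, the first of the beta constant regions, had 22, 20, 6 and 3 counts in replicates 1 to 4, or 23.8, 21.2, 4.83 and 2.69 TPM. Trbc2, the second, had 15, 22, 7 and 6 counts, or 17.6, 25.2, 6.10 and 5.83 TPM. For both genes, counts were higher in replicates 1 and 2 than in replicates 3 and 4, as they were for Pou2f1. How many of all genes split the libraries in that way was not counted. Trbc1 averaged 13.1 ± 10.9 TPM (SD, n = 4; 3.06 log2 units over 1 TPM, SE 0.54, limma adjusted p = 0.00237). Trbc2 averaged 13.7 ± 9.44 TPM (3.36, SE 0.38, limma adjusted p = 0.000112). The 2 genes summed to 37, 42, 13 and 9 counts.

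Cd3e, the epsilon chain, had 16, 17, 14 and 4 counts in replicates 1 to 4, or 3.18, 3.30, 2.07 and 0.659 TPM. It was over 1 TPM in 3 of 4 libraries, with replicate 4 below it. Its mean was 2.30 ± 1.23 TPM (SD, n = 4), 0.91 log2 units over 1 TPM (SE 0.45), and it did not pass (limma adjusted p = 0.114). Without replicate 4 it lay 1.395 log2 units over and was called (limma adjusted p = 0.00234).

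Cd3d, the delta chain, had 11, 33, 16 and 7 counts in replicates 1 to 4, or 4.92, 14.4, 5.31 and 2.59 TPM. Replicate 2 was the high library here, and replicate 4 again the lowest. The level was 2.38 log2 units over 1 TPM (SE 0.39, limma adjusted p = 0.000774) with a mean of 6.81 ± 5.21 TPM (SD, n = 4). Cd3g, the gamma chain, had 16, 16, 14 and 5 counts, or 3.97, 3.88, 2.58 and 1.03 TPM, so that replicate 4 lay just over 1 TPM. It averaged 2.87 ± 1.38 TPM (1.27 log2 units over 1 TPM, SE 0.41, limma adjusted p = 0.0264). Leaving out replicate 1, 2 or 3 ended the call of Cd3g, with adjusted p of 0.121, 0.0978 and 0.0887.

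Cd247, the zeta chain with its 3 ITAMs, had 1204, 1148, 1310 and 1073 counts in replicates 1 to 4, or 183, 171, 148 and 135 TPM. The libraries lay close together, and no library stood apart in the counts. The mean was 159 ± 21.7 TPM (SD, n = 4), 7.17 log2 units over 1 TPM (SE 0.12, limma adjusted p = 7.8e-11). Its rank by count in a library was between 318 and 398. Cd247 held most counts of the 4 CD3 chains in each library, and 3007 of its exon bases are also exon bases of Pou2f1.

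Gm48719, for which no function is given here, had 2549, 2746, 2735 and 2857 counts in replicates 1 to 4, or 5733, 6031, 4565 and 5321 TPM. Replicate 4 had the highest count of the 4 libraries, unlike in Cd3e. The mean of 5412 ± 635 TPM (SD, n = 4) lay 12.26 log2 units over 1 TPM (SE 0.08, limma adjusted p = 1.85e-12). Among all genes it ranked between 22 and 24 by TPM and between 111 and 123 by count. Pou2f1 had 350, 346, 299 and 289 counts, or 17.1, 16.5, 10.9 and 11.7 TPM. Its counts were higher in replicates 1 and 2 than in replicates 3 and 4. Its mean was 14.1 ± 3.23 TPM (3.66 log2 units over 1 TPM, SE 0.20, limma adjusted p = 4.38e-07).

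The order of mean levels per exon length was Gm48719, Cd247, Trac, Pou2f1, Trbc2, Trbc1, Cd3d, Cd3g and Cd3e. The first 2 lay apart from each other and from the rest in every library. From Trac to Trbc1 neighbours in that order differed by less than the SD of either, and so did Cd3g and Cd3e. Trbc1 and Cd3d differed by less than the SD of Trbc1 and by more than that of Cd3d. Cd3d was higher than Cd3g in each library, and their means differed by less than the SD of Cd3d.

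Within a library, each CD3 chain was set against the feature opposite it, and the receptor chains against each other. The exact sign-flip permutation test over 4 libraries is two-sided and cannot go below 0.125, so none of the 4 differences could pass, and the values are descriptions. Cd3e minus Gm48719 was -10.77, -10.79, -11.04 and -12.78 log2 units in replicates 1 to 4, a mean of -11.34 ± 0.96 (SD, n = 4), below 0 in every library (exact p = 0.125, adjusted over the 4 differences 0.25). In summed counts, with no length scaling, Gm48719 had 213.5 times the counts of Cd3e. Cd247 minus Pou2f1 was 3.41, 3.36, 3.76 and 3.52, a mean of 3.51 ± 0.18, above 0 in every library (exact p = 0.125, adjusted 0.25). By row name, the feature opposite held more counts at Cd3e and the CD3 chain held more at Cd247. If the counts come from the strand opposite the transcripts, both directions turn, with the counts of Gm48719 from RNA of the Cd3e strand and those of Cd247 from RNA of the Pou2f1 strand.

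Trbc1 minus Trbc2 was 0.44, -0.25, -0.33 and -1.09 in replicates 1 to 4, a mean of -0.31 ± 0.62 log2 units (SD, n = 4; exact permutation p = 0.5, adjusted 0.5). Only replicate 1 had more Trbc1, and the mean was smaller than the spread. In summed counts, with no length scaling, Trbc1 had 1.02 times the counts of Trbc2. Trac minus the sum of Trbc1 and Trbc2 was -1.32, -0.86, 0.67 and -2.49, a mean of -1.002 ± 1.31 (exact permutation p = 0.25, adjusted 0.3333). Trac exceeded the beta sum only in replicate 3, and the difference without replicate 3 was -1.56, without replicate 4 -0.51. Without replicate 4, Trbc1 minus Trbc2 was -0.05.

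**Figure D3:**
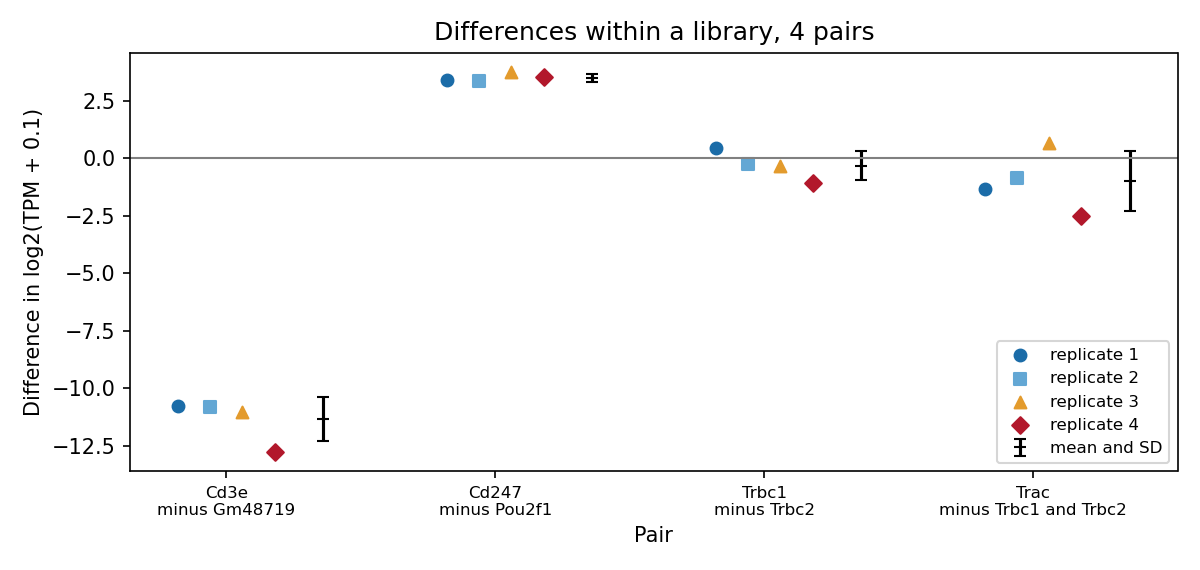
Differences within each library in log2(TPM + 0.1) for the 4 pairs (columns), with 1 marker per library and the mean with its SD in black. Cd3e minus Gm48719 lies between -12.78 and -10.77, Cd247 minus Pou2f1 between 3.36 and 3.76, and the 2 receptor-chain pairs have libraries on both sides of 0.

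Replicate 4 had fewer counts than the other libraries in the receptor chains and in the CD3 chains on chromosome 9. Its log2 CPM (counts scaled to a common library total, prior 0.5) lay below the mean of replicates 1 to 3 by more than 1 in 6 of the 9 rows. That count was 5 with TMM factors, with DESeq2 size factors or without replicate 1, and 4 without replicate 2, where Trbc2 was at -0.70 and Cd3d at -0.85. It differed by -3.40 for Trac, -2.10 for Trbc1, -1.14 for Trbc2, -1.90 for Cd3e, -1.36 for Cd3d and -1.58 for Cd3g. It differed by -0.24 for Cd247, -0.25 for Pou2f1 and 0.04 for Gm48719. Among genes with no shared bases and a mean count of at least 10 in the other 3 libraries, 56.5% were more than 1 lower in replicate 4, and 5 of 5 such rows were. Among genes with shared bases, 12.1% were, and 1 of 4 rows was (Cd3e, of whose exon bases 3.31% are shared). Fewer cells of a type and less RNA per cell cannot be told apart in bulk samples, and the part of strand, of ribosomal RNA or of cell content in the low values of replicate 4 was not tested.

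The median over all genes in replicate 4 was -0.25 by library totals and 0.08 by DESeq2 size factors, and that scaling moves every row by the same amount. By DESeq2 size factors the difference of replicate 4 was -3.07 for Trac and -0.81 for Trbc2. Those factors put Cd247 at 0.09, Pou2f1 at 0.08 and Gm48719 at 0.37, so that the sign for Cd247 and Pou2f1 depended on the scaling. As a rate, replicate 4 had 0.0772 times the Trac counts of replicates 1 to 3 (95% exact conditional interval 0.00918 to 0.288). The rate was 0.287 times for Trbc1 and Trbc2 summed (0.127 to 0.569) and 0.307 times for Cd3e, Cd3d and Cd3g summed (0.171 to 0.514). For Gm48719 it was 1.04 times (0.999 to 1.09), for Cd247 0.859 (0.802 to 0.920) and for Pou2f1 0.852 (0.745 to 0.972).

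Replicate 3 differed from replicates 1 and 2 in the beta constant regions. Of the 9 rows, 2 lay more than 1 log2 unit below the mean of the other 3 libraries, Trbc1 at -1.34 and Trbc2 at -1.30. That was 2 of the 5 rows with no shared bases, where 6.81% of all such genes were as low, and 0 of the 4 rows with shared bases, where 5.41% were. The beta sum in replicate 3 was 0.222 times that of replicates 1 and 2 (95% exact conditional interval 0.113 to 0.401), and 0.307 times (0.157 to 0.556) on totals without CT010467.1. Trac was 0.742 times (0.446 to 1.21) on full totals, and 1.03 times (0.618 to 1.68) without CT010467.1, so its interval held 1 on both scales. The sum of Cd3e, Cd3d and Cd3g in replicate 3 was 0.543 times that of replicates 1 and 2 (0.374 to 0.778), and 0.753 times (0.518 to 1.08) without CT010467.1. For Cd247 the same ratios were 0.750 and 1.04, and for Gm48719 0.695 and 0.964. For Pou2f1 they were 0.578 (0.503 to 0.663) and 0.801 (0.6975 to 0.919), so its interval lay below 1 on both scales.

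**Figure D4:**
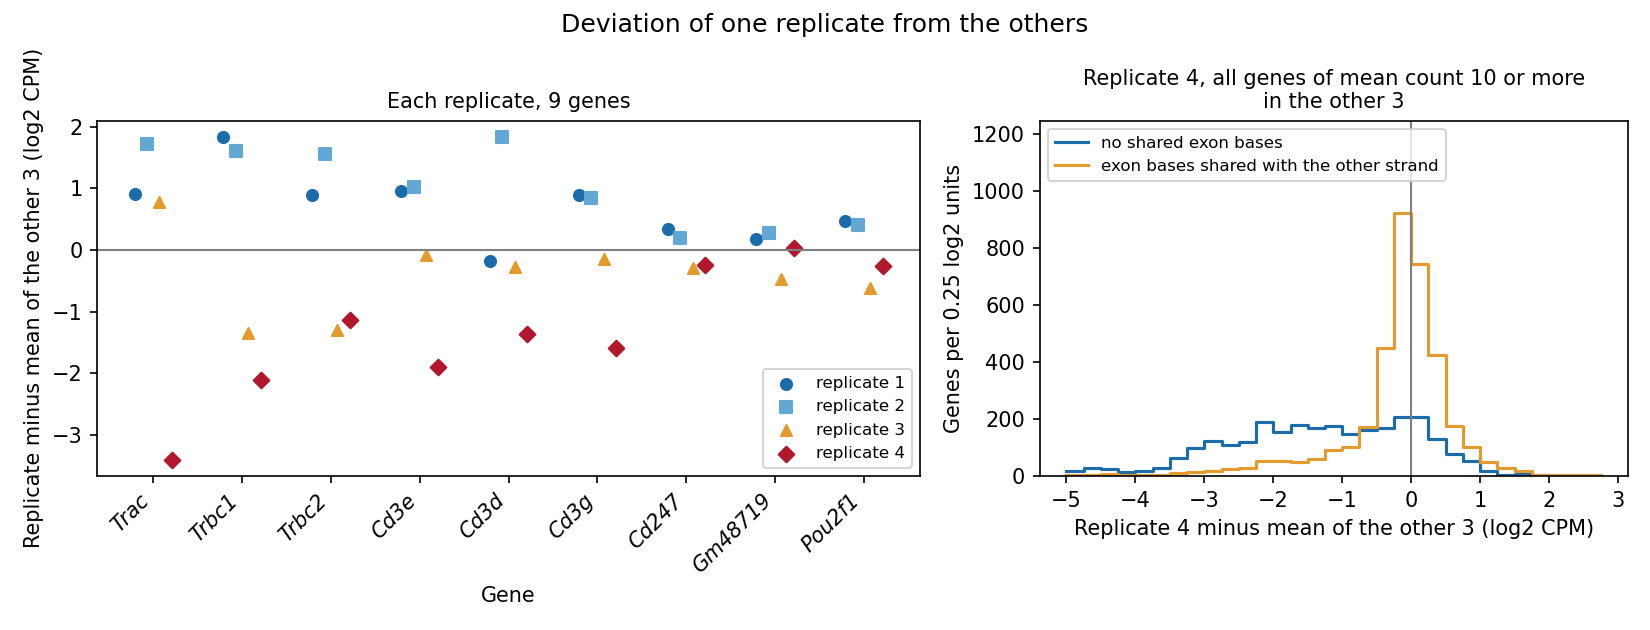
Left, each replicate minus the mean of the other 3 in log2 CPM for the 9 genes. Right, the same difference for replicate 4 over genes with a mean count of at least 10 in the other 3, drawn from -5 to 3. Lines give the number of genes per 0.25 log2 units, split by whether exon bases are shared with the other strand. Genes beyond those limits are not drawn. Replicate 4 lies more than 1 below 0 from Trac to Cd3g and near 0 for Cd247, Gm48719 and Pou2f1, and genes with no shared bases spread far below 0.

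The spread between the libraries was set beside that of genes of like count. The coefficient of variation of CPM was 67.3% for Trac, 84.8% for Trbc1, 71.0% for Trbc2 and 78.9% for Cd3d. Genes of like count had medians between 43.7% and 49.2%, so these 4 genes varied more than the median gene of their count. Cd3e (55.4%) and Cd3g (50.1%) lay near that median of 48.7%. Gm48719 varied by 16.1% and Cd247 by 16.2%, against medians of 16.9% and 17.7%. Pou2f1 varied by 26.2%, more than the median of 18.9% for its count. On totals without CT010467.1, Gm48719 varied by 4.1%, Cd247 by 7.29%, Pou2f1 by 12.6% and Trac by 64.0%. The medians for genes of like count were not computed on that scale, so these values have no such comparison. In edgeR's quasi-likelihood fit 3 of the 9 rows passed the expression filter (Cd247, Gm48719 and Pou2f1), and 0 were called more variable than the trend (adjusted p = 0.987 each). Over all 4190 genes tested, 0% were called, with 268 at an unadjusted p under 0.05, and DESeq2 marked 27 genes as dispersion outliers, none of them among the 9 rows.

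Variable and joining segments gave a further count at each receptor locus. Of 128 Trav segments (alpha V segments) 27 had a count, with 50, 64, 40 and 47 counts in replicates 1 to 4. Of 35 Trbv segments (beta V segments) 22 had a count, with 35, 36, 25 and 7. Replicate 4 was lowest in the beta V segments, and in the alpha V segments it lay within the range of the others, with replicate 3 lowest. All beta segments together had 38, 39, 35 and 10 counts, of which the Trbj segments had 3, 3, 10 and 3. By raw count replicate 3 was less low there than in Trbc1 and Trbc2, which summed to 37, 42, 13 and 9. These counts are not scaled, and replicate 3 had the largest library total (2711948 counts). Trav13d-3, the highest, had 15, 24, 15 and 17 counts, and Trav13n-3 had 10, 18, 7 and 9. All exon bases of both are shared with a feature on the other strand. Leaving those 2 out, the other 126 Trav segments had 25, 22, 18 and 21 counts, with replicate 3 again the lowest.

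At the beta locus Trbv13-2 was highest, with 14, 10, 3 and 1 counts in replicates 1 to 4, high in the libraries where Trbc1 was high. Trbv2, with 4, 2, 3 and 1, and Trbj2-7, with 0, 2, 6 and 2, tied for second. The joining segments had few counts, with 18 in 12 of 60 Traj segments and 19 in 7 of 14 Trbj segments. V segments of one family are near-identical in part, so their split between segments is uncertain. At the gamma locus, which serves another T cell lineage, the symbol search found 1 Trgv and 4 Trgj segments, with 0 counts. Genes of that locus under other symbols were not looked up, so the 0 does not describe the whole locus. The delta locus had 4 counts in 4 of 10 segments, of 1 count each. A count of 0 allows up to 3 counts, which are 1.11 to 1.66 CPM in these libraries.

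**Figure D5:**
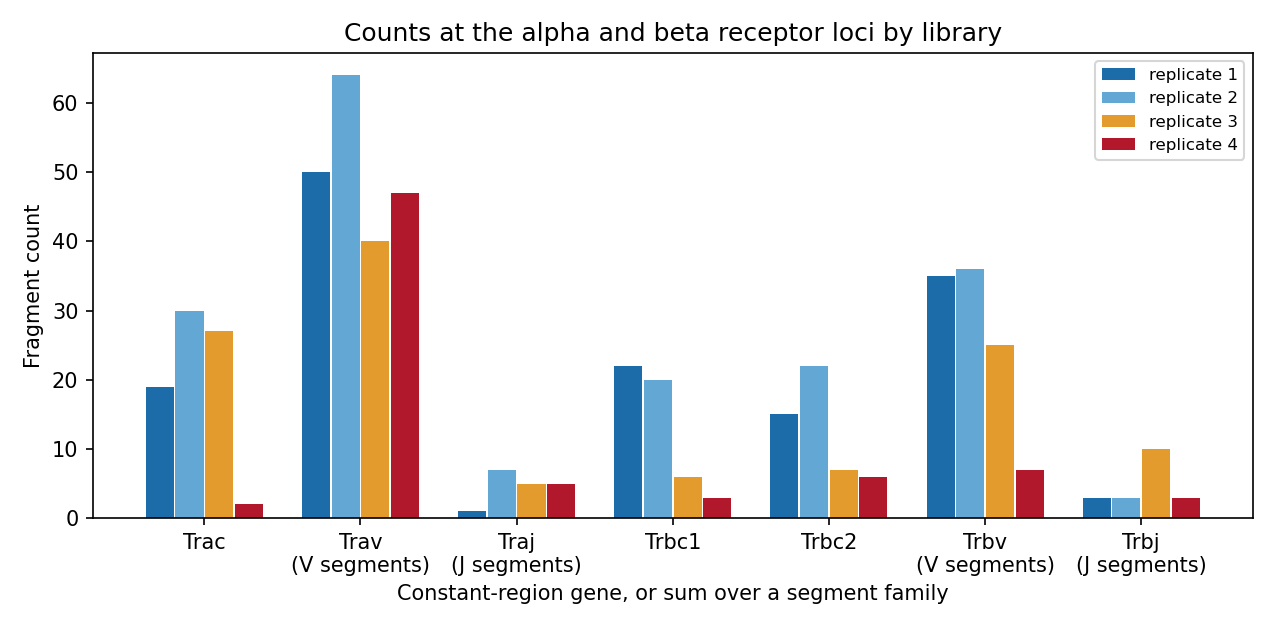
Fragment counts in replicates 1 to 4 (bars, from 0) for the constant-region genes and for the sums over V and J segments of the alpha and beta loci. Trac has 2 counts in replicate 4, where the Trav segments have 47, and the Trbv segments have 7 there against 25 to 36 in the other libraries.

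Few of the nearest annotated neighbours of the 9 rows held many counts on the selected strand. Below Cd3g, the ubiquitin ligase gene Ube4a had 20, 15, 10 and 1 counts in replicates 1 to 4, lowest in replicate 4 like Cd3g. Above Cd3e, the adhesion gene Mpzl2 had 0, and Gm48720 within Cd3e had 0. Next to Trac, Traj1 had 0 counts, and Dad1, an oligosaccharyltransferase subunit on the other strand, had 8, 5, 9 and 9. Next to the beta constant regions, Trbj1-7 and Trbd2 had 0 and Trbv31 had 0, 1, 1 and 0. Around Cd247 and Pou2f1, Gm24808 had 0, 1, 0 and 1 and Gm17976 and Gm26665 had 0. Gm37469, the nearest feature below Pou2f1 and on its strand, had 19, 13, 8 and 32.

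The genes with the profile most like Cd247, Gm48719 and Pou2f1 were taken from 2739 genes with a mean count of at least 50, by the root mean square difference of centred log2 CPM over 4 libraries. The nearest to Cd247 were Acat3 (0.0113), Gm5711 (0.0164) and Gm15886 (0.0177). The nearest to Gm48719 were Xpa (0.00267), Zhx3 (0.0121) and 1600012H06Rik (0.0121). The nearest to Pou2f1 were Mfsd14a (0.00763), Ankzf1 (0.0157) and Unc13a (0.0269). Each of these but Gm5711 overlaps exons of an opposite-strand gene, and with 4 libraries such likeness is a description. The share of the 2739 genes with such an overlap was not computed. Of genes with a mean count of at least 10 in replicates 1 to 3, 3647 of 6368 share bases. The overlap is thus not read as a trait of these profiles.

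Genes that act next to the receptor were described in the same way, from lists chosen by function. By limma, 11 of 26 proximal signalling genes were called above 1 TPM and 2 below (adjusted p of 0.05). Of all genes 32.1% and 26.6% were, and of genes with a mean count of at least 10, 80.6% were called above. Of the 26, 18 had such a mean in replicates 1 to 3, so the calls are not read as a raised level. The median of the mean levels of the 26 genes was 2.40 TPM, against 1.14 TPM over all genes with a count. Prkcq, the protein kinase C theta of T cells, averaged 15.7 ± 2.83 TPM (SD, n = 4), and Lck, which phosphorylates ITAMs, 7.47 ± 3.98 TPM. Ptpn6, a phosphatase, averaged 14.2 ± 7.20 TPM and the adaptor Lcp2 11.1 ± 5.64 TPM, both with bases shared on the other strand (195 and 88). In replicate 4, 15 of the 18 with a mean count of at least 10 were more than 1 log2 unit lower than in the other 3 libraries, where 31.1% of all genes and 56.5% of those with no shared bases were.

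Among 10 coreceptor and costimulation genes, limma called 6 above 1 TPM and 0 below, and their median was 7.61 TPM. Of all genes 32.1% were called above and 26.6% below, and of those with a mean count of at least 10, 80.6% above. Cd6 averaged 19.6 ± 4.72 TPM (SD, n = 4), Cd40lg, the ligand for CD40 on B cells, 11.8 ± 6.75 TPM, Cd27 11.7 ± 3.68 TPM and Cd4, the coreceptor of helper cells, 9.60 ± 4.32 TPM. Of 8 factors that bind enhancers of the receptor loci 5 were called above and 0 below, with a median of 4.28 TPM. Tcf7 averaged 14.9 ± 6.04 TPM, Lef1 11.7 ± 2.25 TPM, Gata3, the factor that defines T-helper 2 cells, 5.96 ± 2.62 TPM and Ets1 5.09 ± 1.57 TPM. In replicate 4, 5 of 8 coreceptor and costimulation genes and 3 of 7 enhancer-binding factors with a mean count of at least 10 were more than 1 log2 unit lower. Of all genes 31.1% were as low, and of those with no shared bases 56.5%. No coreceptor or costimulation gene shares bases with the other strand, so 5 of 8 is near the share for such genes. Cd27, with 34, 29, 32 and 58 counts in replicates 1 to 4, and Lef1, with 114, 123, 147 and 196, were highest in replicate 4. Lef1 shares 1208 exon bases with the other strand and Gata3 155, so their counts may come from RNA of another gene. Of the POU family, Pou2f2 was called above beside Pou2f1 (2.79 ± 0.916 TPM), the coactivator Pou2af1 was called below (0.215 ± 0.294 TPM), and Pou2f3 had 0 counts.

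The lists of other lymphoid and myeloid cells held genes with 0 counts, with Csf1r, Cd68 and Cd79a called above 1 TPM. Only 17203 of the 50600 gene rows had a count, so zeros were common outside these lists too, and they are not read as a trait of the lists. The background for the calls is 32.1% above and 26.6% below among those 17203 genes. Ptcra, the pre-receptor alpha chain, Rag1 and Rag2, which rearrange the loci in the thymus, and Dntt had 0 counts in every library. Of the gamma-delta list 2 of 5 genes were found, and Trgc1, Trgc2 and Trgc4 were not matched by symbol. Trdc was at 0.757 ± 0.236 TPM (SD, n = 4) and Sox13 was called below at 0.163 ± 0.117 TPM. Those 2 had a summed level of 0.696 to 1.21 TPM. Cd8a had 0 counts, and Cd8b1 1.59 ± 0.428 TPM. Of 6 natural killer cell genes 5 had 0 counts (Ncr1, Klrb1c, Klrd1, Klrk1 and Gzma) and Prf1 was called below (0.0650 ± 0.130 TPM), with a sum of 0 to 0.260 TPM. Of 8 B cell genes 5 had 0 counts, Ms4a1 and Pax5 among them, Ighd was called below, and the sum ran from 5.54 to 16.1 TPM. Ighm had 4.43 ± 3.63 TPM, and Cd79a, a B cell receptor chain with an ITAM, was called above at 5.92 ± 1.52 TPM.

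Of 6 macrophage genes 4 had 0 counts, Lyz2, Adgre1, Itgam and Cd14. Csf1r was at 148 ± 21.7 TPM, with 871 exon bases shared on the other strand, Cd68 at 6.29 ± 3.19 TPM, and the sum ran from 127 to 179 TPM. Of the other chains with an ITAM, Fcer1g and Cd79b had 0 counts and Tyrobp had 0.730 ± 0.957 TPM. On the strand counted, neither the zeros nor the counts of these lists say which cells were present, and the part of other cell types in the values of the 9 rows was not tested.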

How the data were processed

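RNA from 4 libraries of T-helper 2 cells was counted by the authors. Per the file headers, featureCounts 1.4.6-p4 counted paired fragments over exons of GENCODE M13 with strand setting 1, and the deposited numbers are unnormalized fragment counts for each gene. The headers list no option for fragments that match several genes or places. Alignments are named star2 there, and the labels give mm10. Total RNA-seq is the assay in the labels, whereas their protocol link names poly(A) RNA, and header paths carry a 24hr mark that no label explains.

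Symbols were matched by gene ID for 50376 of 50600 IDs. TPM and CPM were computed from counts, although the tests had been planned for TPM. Levels were tested with limma 3.58.1 (trended, robust, two-sided) on log2(TPM + 0.1), and spread with edgeR 4.0.16 (intercept-only quasi-likelihood fit, TMM factors, default filter, upper tail). Both used Benjamini-Hochberg adjustment over all genes tested at 0.05 and were tested on simulated data. Other tools were Python 3.11.15 with scipy 1.17.1, and R 4.3.3 with DESeq2 1.42.0. Sequences were read from GENCODE M21 transcripts on GRCm38. The named genes were the 9 rows, the genes highest in mean TPM in each list (up to 4), the nearest neighbours and profiles, and the top 2 segments of each locus. The members and lists were chosen with earlier results of these data known. Depth was 1804217 to 2711948 counts, and 3 counts were 1.11 to 1.66 CPM.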

Additional observations from a re-analysis of the deposited data

How the results depend on the processing

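Pseudocounts of 0.5 and 1, TMM scaling, totals without CT010467.1 and a mean count of at least 10 each kept 8 of the 9 rows above 1 TPM, and leaving out single replicates gave 6 to 9. Over all genes, the count above 1 TPM was 5523, and 5090 to 6452 when a replicate was left out. Over all genes, the count below 1 TPM was 4571, with 13 when a mean count of at least 10 was required, and 2410 to 2928 when a replicate was left out. Calls of excess spread, 0 of 4190, became 345 with no filter, 1 with DESeq2 size factors, 27 by DESeq2 outliers and 0 to 20 when a replicate was left out, the 20 without replicate 4. The cause was not tested. The differences within a library kept their direction in all 14 alternatives for CD3 chains against the features opposite and all 14 for receptor chains. For Trbc1 minus Trbc2 that direction was weak, at -0.05 without replicate 4. Its summed counts went the other way, with Trbc1 at 1.02 times Trbc2. For replicate 4, DESeq2 size factors moved Cd247 to 0.0904 and Gm48719 to 0.37. Totals without CT010467.1 for replicate 3 were added after the data were seen. No paired analysis was possible because the study holds 1 group. Rows such as Trac, Cd3e and Cd3g had 2 to 5 counts in replicate 4, which limits what that library can show.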

Other observations

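Within the span of Cd247, 4 features are annotated on the other strand and share no exon base with it: Gm23402, Gm32999, Gm37856 and Gm37469. They were chosen after their values were seen. Together they had 47, 42, 61 and 97 counts in replicates 1 to 4, or 26.1, 22.7, 22.5 and 44.7 CPM. Gm37856 had 18, 20, 32 and 45 counts, Gm37469 had 19, 13, 8 and 32, Gm32999 had 10, 9, 19 and 20, and Gm23402 had 0, 0, 2 and 0.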
